A study of Mus musculus with 6 samples.

Results

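NF-κB is a family of dimeric transcription factors, and the genes described here are its subunits and the proteins that hold it in check. They are 10 of the 35869 gene symbols listed in each expression table, and they were taken by symbol: the 5 REL family subunits Rela, Rel, Relb, Nfkb1 and Nfkb2, and the 5 IκB family genes Nfkbia, Nfkbib, Nfkbie, Nfkbiz and Bcl3. The libraries hold poly(A) RNA of mouse acute myeloid leukaemia (AML) cells made with an MLL-AF9 retrovirus and carrying floxed Chaf1b, a gene for a subunit of the histone chaperone CAF-1. Both groups carried the floxed alleles and CreERT2, a recombinase that becomes active when an oestrogen receptor ligand is added, and both were grown with SCF, IL6 and IL3. By their treatment tags the 3 KO libraries came from cells with β-estradiol and the 3 WT libraries from cells with vehicle, which is ethanol in the series' design text; the treatment protocol, however, is worded alike for all samples and names the β-estradiol alone. The cells were lysed 48 hours after induction per the same text; WT is therefore the label of undeleted floxed cells, not of cells without the transgene. If the tags hold and no WT culture received the ligand, deletion and ligand cannot be told apart. The cells are described as clones, but whether each replicate was its own clone or culture is not stated, so the p-values cover the spread among these libraries only, and that spread may be technical.

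In resting cells, dimers of the REL family are kept in the cytoplasm by the classical inhibitors IκBα (Nfkbia), IκBβ (Nfkbib) and IκBε (Nfkbie). Signals from cytokine and pattern recognition receptors activate the IKK kinases, which mark these inhibitors for destruction, and the freed dimers enter the nucleus. NF-κB induces its own inhibitors, Nfkbia above all, which ends the response. Bcl3 and IκBζ (Nfkbiz) are atypical members that act in the nucleus. In myeloid cells the pathway is known for inflammatory gene expression and for survival.

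Values are TPM, a relative transcript abundance that corrects for transcript length, so that levels of different genes can be compared, but that keeps no record of read depth. A depth of some 120 M reads per sample is stated in the labels, but the depth behind a single TPM is unknown. Chaf1b, which checks the labels, lay between 14.2 and 17.7 TPM in KO and between 48.6 and 50.6 TPM in WT. All 13 genes of a leukaemic progenitor list, such as Hoxa9, Meis1 and Kit, were above 1 TPM in every library, and the T cell genes Cd4 and Cd8a were listed at 0 in every library. KO replicate 1 and WT replicate 1 stood apart from the other libraries of their groups: Pearson's r of log2(TPM + 1) across 13575 genes was 0.991 and 0.992 between KO replicate 1 and the other KO libraries against 0.998 between those, and 0.984 and 0.986 for WT replicate 1 against 0.998 (genes are not independent replicates). The file header of WT replicate 1 alone carries a note on a replacement, which no source used here explains. Results on the members that rest on these libraries are given with and without them.

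Among the 10 genes, 3 were higher in KO: Nfkbia nearly doubled, and Nfkbie and Rel rose by smaller amounts. The abundant subunit genes Nfkb1 and Rela had KO means within a few TPM of their WT means, and Nfkbib was lower in all 3 KO libraries without passing the test. The test was limma on log2(TPM + 1) across all genes that reached 1 TPM in 3 or more of the 6 libraries, called at a Benjamini-Hochberg adjusted p under 0.05 over all 13575 genes tested. Of the 10 members 9 passed this filter, Nfkbiz being the exception, and 3 of these 9 were called higher and 0 lower (4 had an unadjusted p under 0.05; the fourth was Nfkbib). Over all tested genes 12.9% were called higher and 6.11% lower, and 5161 of the 13575 had an unadjusted p under 0.05. Of all calls, 67.8% were higher with TPM as deposited, 48.2% after median scaling and 43.9% after quantile normalization. This share also moved with the filter on low values: it was 80.4% unfiltered and 56.0% where genes had to average 5 TPM or more. The KO libraries held 13553 to 14097 genes at 1 TPM or more, and the WT libraries 12862 to 13007. The shares of all tested genes include genes that passed the filter through the KO libraries alone and so had to differ. The median log2 fold change was 0.09 over the 9 tested members and 0.007 over all tested genes. The median of the members was the value of Relb, a gene at 0.7 to 2.0 TPM that was at -0.18 without KO replicate 1. KO values lay wholly above WT values for 3 members and wholly below them for 2, where 23.4% and 19.5% of all tested genes did so. With WT replicate 1 left out, 4 members were called higher and 0 lower by limma (5 had an unadjusted p under 0.05), against 21.6% and 14.2% of all tested genes. In that setting 6841 of all 13575 tested genes had an unadjusted p under 0.05. With both replicates numbered 1 left out, 4 were higher and 1 lower, against 28.4% and 27.3%.

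**Figure D1:**
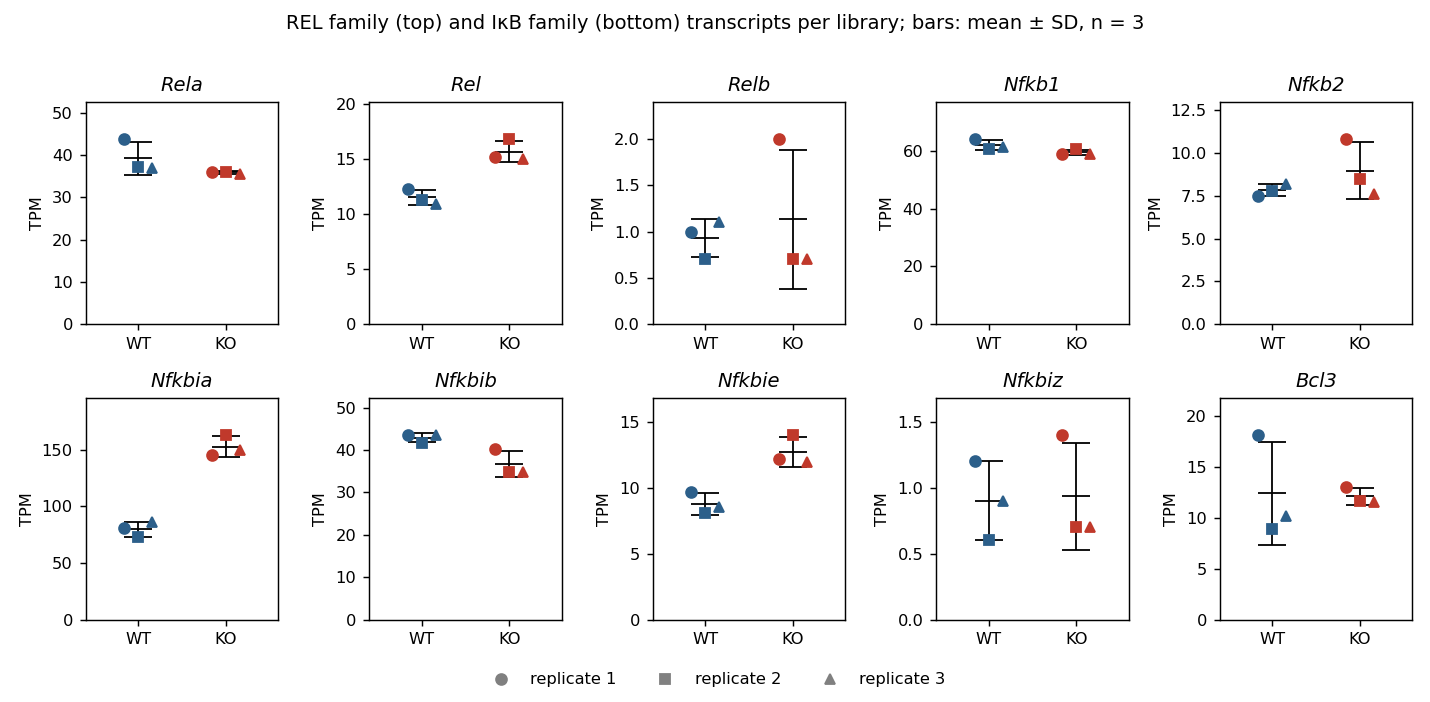
TPM of each member in every library, with WT in blue, KO in red, 1 marker shape per replicate number, and black bars for the mean ± SD (n = 3); each panel has its own axis starting at 0. Nfkbia, Nfkbie and Rel have all KO points above all WT points, while Bcl3 is highest in WT replicate 1 at 18.2 TPM and Relb highest in KO replicate 1 at 2.0 TPM.

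Nfkbia encodes IκBα, the inhibitor that NF-κB most directly induces, and it was the member with the highest level and the largest change. It lies on chromosome 12 (GRCm38, 55489409 to 55492647, minus strand), with 6 exons in its longest coding transcript and no overlapping gene in GENCODE M21. KO replicates 1, 2 and 3 held 145.7, 163.2 and 149.3 TPM of Nfkbia, and WT replicates 1, 2 and 3 held 80.6, 72.9 and 86.2 TPM. The groups did not overlap, and the lowest KO library exceeded the highest WT library by more than the range within either group. Nfkbia averaged 153 ± 9.24 TPM (SD, n = 3) in KO, 1.91 times its average of 79.9 ± 6.68 TPM in WT. The log2 fold change was 0.93 (SE 0.08, 95% confidence interval 0.74 to 1.12, limma adjusted p = 0.0093), and 20 of the 13575 tested genes had a smaller p. By exact permutation of the 6 TPM values (two-sided) p was 0.1, which is the lowest value that 3 against 3 can give. Rel and Nfkbie had the same p, and so did Rela and Nfkbib, which were not called by limma. Of the 2554 tested genes with a WT mean at least as high as that of Nfkbia, 16 were called higher by at least as large a log2 fold change, Nfkbia included. The call was kept in 14 of 15 alternative settings, with log2 fold changes from 0.86 to 0.98. It was lost without KO replicate 3 (log2 fold change 0.94, limma adjusted p = 0.090), a setting in which limma called 0 of all tested genes and 3381 had an unadjusted p under 0.05.

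Promoter windows of RefSeq on GRCm38.p6, the 250 bases before an annotated start, were available for 7 of the 10 members; Nfkb1, Relb and Nfkbiz had no entry. They were searched on both strands for the κB consensus, the 10-base motif that NF-κB dimers are known to bind. Printed here are the 3 members that were called higher, Nfkbia with its whole window and Rel and Nfkbie, described next, with the stretch around the match, with the matching bases in capitals; where matches on the strands overlapped they form 1 stretch.
Nfkbia, chr12:55492648-55492897, minus strand: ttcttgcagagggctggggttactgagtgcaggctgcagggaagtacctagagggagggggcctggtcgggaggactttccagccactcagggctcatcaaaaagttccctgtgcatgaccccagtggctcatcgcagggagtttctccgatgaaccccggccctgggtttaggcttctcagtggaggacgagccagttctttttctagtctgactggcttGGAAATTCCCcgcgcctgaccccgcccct
Rel, chr11:23771031-23771081, minus strand: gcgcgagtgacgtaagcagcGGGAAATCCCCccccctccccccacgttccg
Nfkbie, chr17:45555574-45555623, plus strand: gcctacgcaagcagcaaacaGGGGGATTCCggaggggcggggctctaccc
The match lay 29 to 20 bases before the start for Nfkbia, 92 to 82 bases for Rel and 106 to 97 bases for Nfkbie. Nfkb2, which was not called, had a match in each of its 3 windows, among them GGGAATTCCCC and GGGGCTTTCC before the first of the starts with a window. These windows lie inside the annotated gene, which begins at 46300994 and had no window there. Rela, Nfkbib and Bcl3 had no match in these letters, so a match was found in 4 of the 7 members with a window, and in all 3 of those called higher. Of all 32851 windows 3.90% held a match. By gene, a match was found in 6.06% of the 1238 genes called higher with a window, in 3.72% of the 618 called lower and in 5.0% of the 7713 tested genes that were not called. A match is a description of the sequence, and binding was not measured.

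Nfkbie encodes IκBε, a classical inhibitor that is also inducible. It lies on chromosome 17 (45555700 to 45563169, plus strand), with 6 exons in its longest coding transcript. Its TPM was 12.2, 14.0 and 11.9 in KO replicates 1, 2 and 3, and 9.7, 8.1 and 8.5 in WT replicates 1, 2 and 3. The lowest KO value was 11.9 and the highest WT value 9.7, so the groups did not overlap. The rise from 8.77 ± 0.833 to 12.7 ± 1.14 TPM (SD, n = 3) was a ratio of 1.45, with a log2 fold change of 0.49 (SE 0.09, 95% confidence interval 0.26 to 0.71, limma adjusted p = 0.023). Leaving out KO replicate 2 or 3 (limma adjusted p = 0.091 and 0.095) or WT replicate 2 or 3 (0.085 and 0.089) ended the call. The log2 fold change of Nfkbie was then 0.42 to 0.53. In these settings limma called 106, 0, 23 and 14 of all 13575 tested genes higher.

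Nfkbib encodes IκBβ, which binds the same dimers but is known to respond more slowly than IκBα. It lies on chromosome 7 (28758251 to 28766644, minus strand) and overlaps Sirt2 and Ccer2 on the other strand; the sources used here do not give the strand setting of the counting, which makes this value uncertain. Sirt2 was at 12.6 to 15.8 TPM over the 6 libraries (limma adjusted p = 0.56). For Nfkbib, KO replicates 1, 2 and 3 had 40.2, 34.9 and 34.9 TPM, and WT replicates 1, 2 and 3 had 43.6, 41.6 and 43.6 TPM. All KO values were below all WT values, with KO replicate 1 nearest to WT. The means were 36.7 ± 3.06 and 42.9 ± 1.15 TPM (SD, n = 3), a log2 fold change of -0.22 (95% confidence interval -0.39 to -0.06, limma adjusted p = 0.068), which did not pass the threshold. Without KO replicate 1 it did (log2 fold change -0.29, limma adjusted p = 0.014), as it did after median scaling (-0.27, 0.039) and with both replicates numbered 1 left out (-0.28, 0.0064). The direction was the same in all 15 alternative settings.

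Rel encodes c-Rel, a transactivating subunit best known from blood cells. It lies on chromosome 11 (23736847 to 23770969, minus strand), with 10 exons and no overlapping gene. Its TPM was 15.2, 16.8 and 15.0 in KO replicates 1, 2 and 3, and 12.3, 11.3 and 10.9 in WT replicates 1, 2 and 3. The 3 KO values were all higher than the highest WT value, which was in WT replicate 1. Rel rose from 11.5 ± 0.721 to 15.7 ± 0.987 TPM (SD, n = 3), a ratio of 1.36 and a log2 fold change of 0.41 (SE 0.07, 95% confidence interval 0.24 to 0.59, limma adjusted p = 0.020). The call ended when KO replicate 2 or 3 (limma adjusted p = 0.084 and 0.092) or WT replicate 2 or 3 (0.078 and 0.083) was left out. The log2 fold change of Rel was then 0.37 to 0.44. In these settings limma called 106, 0, 23 and 14 of all 13575 tested genes higher. Rel was the only one of the 5 subunit genes that was called with all libraries.

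Rela encodes p65, the main transactivating subunit, and lies on chromosome 19 (5637442 to 5648134, plus strand). Its TPM came to 36.1, 36.1 and 35.6 in KO replicates 1, 2 and 3, and to 43.8, 37.1 and 36.9 in WT replicates 1, 2 and 3. All KO values lay below all WT values, but WT replicates 2 and 3 exceeded the highest KO value by at most 1 TPM and WT replicate 1 alone was clearly higher. The log2 fold change was -0.12 (95% confidence interval -0.31 to 0.06, limma adjusted p = 0.29), and -0.04 without WT replicate 1 (0.41). Nfkb1, the gene of p105 and its product p50 (chromosome 3, 135584655 to 135691969, minus strand), was at 58.9, 60.5 and 59.0 TPM in KO and 64.0, 60.5 and 61.4 TPM in WT replicates 1, 2 and 3. Its groups overlapped at 60.5 TPM, and the log2 fold change was -0.06 (95% confidence interval -0.17 to 0.05, limma adjusted p = 0.39). The interval of Nfkb1 excludes a change of the size measured for Rel in either direction.

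Nfkb2 and Relb encode the pair of the non-canonical pathway, p100 (the precursor of p52) and RelB. Nfkb2 (chromosome 19, 46300994 to 46312400, plus strand) was at 10.8, 8.5 and 7.6 TPM in KO replicates 1, 2 and 3 and at 7.5, 7.8 and 8.2 TPM in WT replicates 1, 2 and 3. It overlaps Psd on the other strand, which was at 0.2 to 0.4 TPM. The groups overlapped, since KO replicate 3 lay below WT replicates 2 and 3. The log2 fold change was 0.16 (95% confidence interval -0.13 to 0.46, limma adjusted p = 0.37), and 0.03 without KO replicate 1 (0.78). Relb (chromosome 7, 19606217 to 19629438, minus strand) was at 2.0, 0.7 and 0.7 TPM in KO and at 1.0, 0.7 and 1.1 TPM in WT replicates 1, 2 and 3. KO replicate 1 held 2.86 times the mean of the other KO libraries, and the other 5 values lay within 0.7 to 1.1 TPM. Relb's log2 fold change of 0.09 (95% confidence interval -0.49 to 0.68, limma adjusted p = 0.81) became -0.18 without KO replicate 1 and -0.38 after quantile normalization, so no direction can be given for it.

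Bcl3, an atypical IκB that can act as a coactivator with p50 or p52 homodimers, lies on chromosome 7 (19808462 to 19822824, minus strand), 179 kb from Relb. Its TPM was 13.1, 11.7 and 11.6 in KO replicates 1, 2 and 3 and 18.2, 8.9 and 10.2 in WT replicates 1, 2 and 3. WT replicate 1 held the highest and WT replicates 2 and 3 the lowest values, at a ratio of 1.91 between WT replicate 1 and the mean of the others. With all libraries the log2 fold change was 0.03 (95% confidence interval -0.56 to 0.61, limma adjusted p = 0.95). Without WT replicate 1 Bcl3 was called higher (log2 fold change 0.32, limma adjusted p = 0.040), as it was with both replicates numbered 1 left out (0.26, 0.044), and its sign turned without WT replicate 2 (-0.16) or WT replicate 3 (-0.07). Of 13 markers of late granulocytes, 10 were tested and 4 called higher, where 12.9% of all tested genes were called higher. The summed TPM of the markers was 531.7 in WT replicate 1, 212.6 and 234.2 in WT replicates 2 and 3, and 580.5 to 1226.2 in KO. Of these markers 2 were under 1 TPM and none at 0 in all libraries. Their part in the Bcl3 value was not tested. The antisense gene Gm16174, which overlaps Bcl3, rose in KO (log2 fold change 0.56, limma adjusted p = 0.034) within 0.7 to 1.9 TPM and could share reads if strand was not used in counting.

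Nfkbiz, which encodes the nuclear IκBζ and lies on chromosome 16 (55811375 to 55838954, minus strand), was near the limit of the filter. It was at 1.4, 0.7 and 0.7 TPM in KO replicates 1, 2 and 3 and at 1.2, 0.6 and 0.9 TPM in WT replicates 1, 2 and 3. Replicate 1 was highest in both groups, the groups overlapped, and the mean difference on the log2(TPM + 1) scale was 0.02, without a test because only 2 libraries reached 1 TPM.

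**Figure D2:**
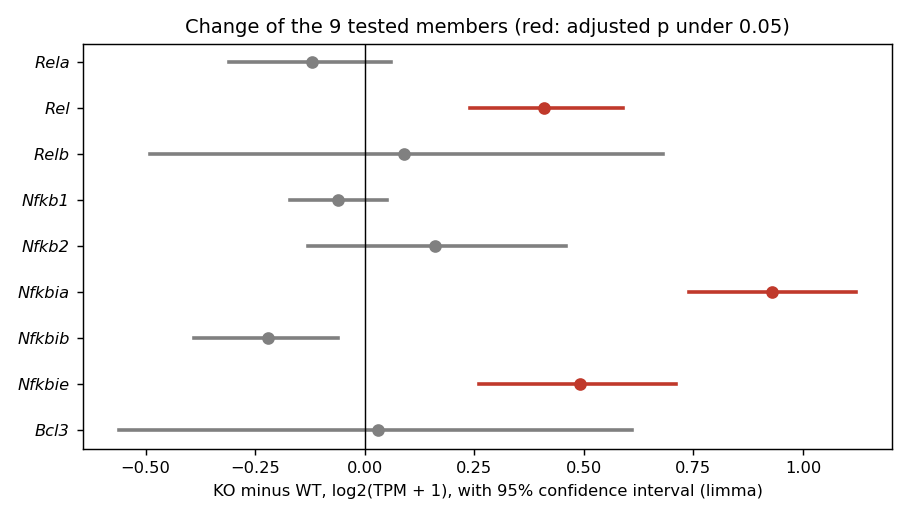
KO minus WT on the log2(TPM + 1) scale for the 9 tested members, as the limma estimate (point) with its 95% confidence interval (line); red marks an adjusted p under 0.05. The interval of Nfkbia (0.74 to 1.12) lies above those of Rel (0.24 to 0.59) and Nfkbie (0.26 to 0.71), and the intervals of Relb and Bcl3 are the widest.

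By group means, the order of the transcript levels was similar in the 2 groups at its top and differed in its middle. In WT, Nfkbia (mean 79.9 TPM) was followed by Nfkb1 (62.0), Nfkbib (42.9) and Rela (39.3), then by Bcl3 (12.4), Rel (11.5), Nfkbie (8.77) and Nfkb2 (7.83), and last by Relb (0.933) and Nfkbiz (0.90). The WT libraries of Nfkbib and Rela overlapped, as did those of Bcl3 and Rel, of Nfkbie and Nfkb2, and of Relb and Nfkbiz. The place of Bcl3 above Rel rested on WT replicate 1 (18.2 against 12.3 TPM). In WT replicates 2 and 3 Rel (11.3 and 10.9 TPM) was above Bcl3 (8.9 and 10.2 TPM), as it was in KO. In KO, Nfkbia (153 TPM) stood further above Nfkb1 (59.5), and Rel (15.7) was above Nfkbie (12.7) and Bcl3 (12.1) in every library, while Nfkbib (36.7) overlapped Rela (35.9) and Nfkbie overlapped Bcl3. WT levels placed Nfkbia above 81.2% of tested genes, Nfkb1 above 77.4%, Rela above 69.4%, Rel above 43.9% and Relb above 4.38%.

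Summed TPM showed the balance of inhibitor and subunit transcripts within each library. The 5 REL family genes added up to 123.0, 122.6 and 117.9 TPM in KO replicates 1, 2 and 3 and to 128.6, 117.4 and 118.5 TPM in WT replicates 1, 2 and 3, so the groups overlapped. Nfkb1 alone made up 47.9% to 50.0% of this sum in KO and 49.8% to 51.8% in WT. The 3 classical inhibitors Nfkbia, Nfkbib and Nfkbie added up to 198.1, 212.1 and 196.1 TPM in KO against 133.9, 122.6 and 138.3 TPM in WT. Their sum divided by the REL family sum was 1.67 ± 0.0603 (SD, n = 3) in KO and 1.08 ± 0.0751 in WT, with every KO library above every WT library. Within the classical inhibitors the share of Nfkbia was 75.5% ± 1.78 in KO and 60.7% ± 1.46 in WT, and the ratio of Nfkbia to Nfkbib went from 1.86 ± 0.115 in WT to 4.19 ± 0.535 in KO. The ratio of Rel to Rela was 0.437 ± 0.0289 in KO and 0.293 ± 0.0115 in WT, again without overlap. These sums describe transcripts, not proteins, and rest on the same values as the tests of the single genes.

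**Figure D3:**
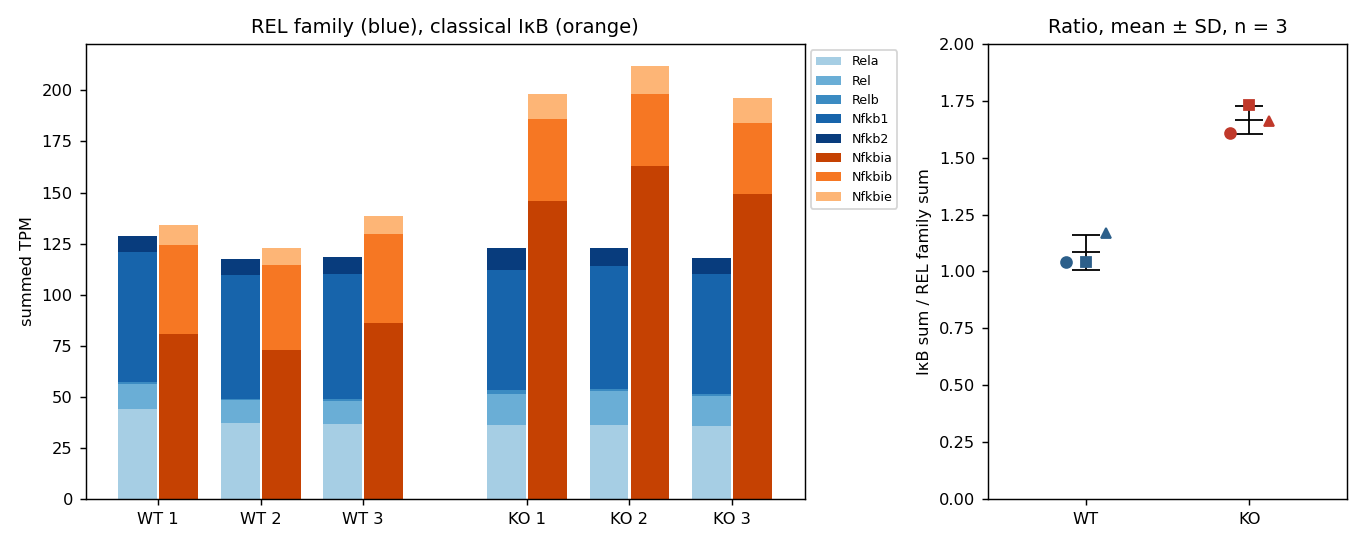
Left, TPM of the 5 REL family genes (blue) and the 3 classical IκB genes (orange) stacked for every library on an axis from 0; right, the IκB sum divided by the REL family sum in each library with mean ± SD (n = 3). The blue bars are of like height in all 6 libraries, and the KO ratios of 1.61 to 1.73 lie above the WT ratios of 1.04 to 1.17.

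KO replicate 1 was closer to WT than the other KO libraries for many genes that rose, but less so for these members. Measured as the part of the way from the WT mean to the mean of KO replicates 2 and 3, KO replicate 1 reached 86.2% for Nfkbia, 84.1% for Rel and 82.1% for Nfkbie. The median over all 1745 genes called higher was 50.7%, and 7.74% of them were at or above the value of Nfkbia.

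Genes whose profile over the 6 libraries was most like that of a called member were found among the 7356 tested genes whose mean reached 10 TPM, by the root mean square difference of log2(TPM + 1) after centring each gene on its mean. Nearest to Nfkbia were Sowahc (0.080), Prkcb (0.091) and Ptgs1 (0.095). Ptgs1, the cyclooxygenase-1 gene, held 33.1, 43.0 and 40.2 TPM in KO replicates 1, 2 and 3 and 21.1, 20.3 and 22.7 TPM in the WT libraries, so that KO replicate 1 lay nearer to WT than it did for Nfkbia. Nearest to Rel were Mir700 (0.026), Panct2 (0.040) and Socs1 (0.042); Mir700 is a microRNA gene shorter than the reads, so its TPM is uncertain. Nearest to Nfkbie were Neurl3 (0.016), Rcan3 (0.021) and Fam114a1 (0.035). All 9 of these genes were called higher, as were the members they were matched to, and all share the 6 libraries with them.

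The rest of the pathway was followed through 8 lists with 138 distinct genes besides the members, of which 111 were tested. Of these, 15 (13.5%) were called higher and 5 (4.50%) lower with all 6 libraries, where 12.9% and 6.11% of all tested genes were, and their median log2 fold change was 0.04. Without WT replicate 1 the counts were 36 (32.4%) and 7 (6.31%) against 21.6% and 14.2% of all tested genes, and with both replicates numbered 1 left out 42 (37.8%) and 25 (22.5%) against 28.4% and 27.3%. Without KO replicate 2, KO replicate 3, WT replicate 2 or WT replicate 3, limma called at most 1 pathway gene. Of the 111 tested, 27 to 37 had an unadjusted p under 0.05. Among all 13575 tested genes limma called 106, 0, 23 and 14 higher and 3, 0, 2 and 1 lower, in that order. Between 3220 and 3886 of all tested genes had an unadjusted p under 0.05 in these settings. The 20 genes called with all 6 libraries were all called without WT replicate 1 and without both replicates numbered 1, and 19 of them without KO replicate 1 (the exception was Ikbke, adjusted p = 0.055). Differences between the lists were not tested. In the following, a pair of values in parentheses gives the log2 fold change and then the limma adjusted p.

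Among ligands, 4 of 10 genes passed the filter and 2 were called higher. Il1b, the interleukin-1β gene, was at 2.2, 5.0 and 4.5 TPM in KO against 0.4, 0.1 and 0.1 TPM in WT; it passed the filter through the KO libraries alone and so had to differ, and its call is no support for the count. Ltb, the lymphotoxin β gene, was at 6.5, 8.4 and 7.2 TPM in KO against 4.0, 1.6 and 1.9 TPM in WT (1.31, 0.023). Tnf, chosen after its values were seen as the classical inducer of the pathway, averaged 19.6 TPM in KO against 16.5 in WT (0.23, 0.078) and was not called.

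Among receptors, 13 of 19 genes were tested, with 4 called higher and 1 lower and a median log2 fold change of 0.44. Tnfrsf1b, the gene of TNF receptor 2, rose to 98.1, 113.3 and 107.4 TPM in KO replicates 1, 2 and 3 from 83.2, 78.6 and 76.8 TPM in WT (log2 fold change 0.41, limma adjusted p = 0.017). Nod1, an intracellular sensor of bacterial cell walls, rose by 0.73 (0.032) and Tlr6, a partner of Tlr2, by 0.55 (0.023), both from below 7 TPM. Cd14, the co-receptor of endotoxin, rose by 1.37 (0.047), with 18.9 TPM in WT replicate 1 against 8.4 and 8.0 TPM in the other WT libraries, and by 1.74 (0.019) without WT replicate 1; it also belongs to the monocyte markers. Ltbr, the lymphotoxin β receptor that feeds the non-canonical pathway, fell by 0.33 on the log2 scale (0.028), from 202.4, 179.2 and 170.3 TPM in WT to 147.2, 145.3 and 145.0 TPM in KO. The receptors Cd40 and Il1r1 were listed at 0 in every library; they were named after their values were seen.

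The calls between receptor and NF-κB are given as counts, where 12.9% of all tested genes were called higher and 6.11% lower. Of 14 genes of the IKK complex and the ubiquitin ligase of IκB 1 was higher, the IKK-related kinase gene Ikbke (17.4, 17.4 and 16.2 TPM in KO against 14.5, 11.9 and 12.4 TPM in WT; limma adjusted p = 0.033). Of 28 adaptors and ubiquitin enzymes 1 was higher and 2 lower. Irak3, an inhibitory member of the IRAK family, rose by 0.57 (0.015), while Rbck1, a subunit of the linear ubiquitin ligase, and Ube2v1, the partner of Ube2n in chain formation, fell by 0.21 (0.046) and 0.26 (0.047). Of 13 negative regulators 2 were higher and 1 lower: Socs1, an inhibitor of cytokine signalling, rose by 0.42 (0.020) and the deubiquitinase gene Cyld by 0.29 (0.048), and Otulin, the deubiquitinase of linear chains, fell by 0.20 (0.049). Of the 2 other IκB-like genes Nfkbil1 rose by 0.32 (0.029), and Nfkbid had a KO mean of 5.47 and a WT mean of 5.97 TPM (limma adjusted p = 0.30). The 11 transcriptional cofactors had a median log2 fold change of -0.03.

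Among 45 target genes outside the 10 members, 32 were tested and 5 (15.6%) were called higher, none lower, with a median log2 fold change of 0.20. This median includes Il1b and Ccl5, which passed the filter through the KO libraries alone and so had to differ. The adhesion gene Vcam1 rose by 4.59 (limma adjusted p = 0.012), the chemokine gene Cxcl10 by 2.45 (0.011), the urokinase gene Plau by 2.05 (0.012) and Il1b was the fourth, with the limit given above; the fifth was the costimulatory gene Cd80 (1.17, 0.021), named after its values were seen. For Vcam1 the KO values were 36.0, 136.8 and 112.6 TPM, with KO replicate 1 lowest, against 1.4, 2.9 and 3.4 TPM in WT; without KO replicate 1 the log2 fold change was 5.18 (limma adjusted p = 0.00070). Well-known feedback and survival targets, also named after their values were seen, were not called: Tnfaip3, the gene of the ubiquitin editor A20, averaged 2.57 TPM in KO against 1.83 in WT (limma adjusted p = 0.44), Icam1, an adhesion gene, at 79.7 and 77.0 TPM (adjusted p = 0.74), Birc3, a survival gene, at 6.43 and 6.47 TPM (adjusted p = 0.97) and Sod2, a mitochondrial antioxidant enzyme, at 91.4 and 103 TPM (adjusted p = 0.24).

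**Figure D4:**
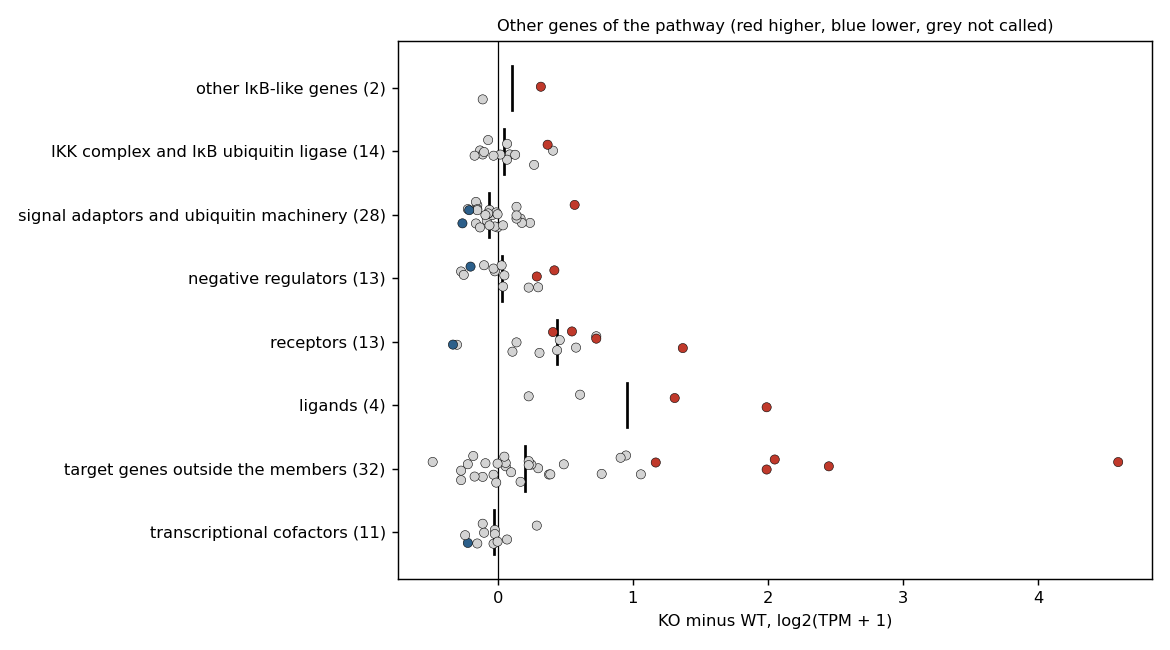
KO minus WT on the log2(TPM + 1) scale for each tested gene of the 8 pathway lists (number tested in parentheses); red points were called higher, blue lower and grey not called, the black line is each list's median, and vertical scatter within a row has no meaning. Medians were 0.44 for receptors, 0.96 for ligands (from 4 genes) and -0.06 for adaptors, and 5 of 32 target genes are red. Ligands and target genes both include Il1b, which passed the filter through the KO libraries alone, and differences between the lists were not tested.

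Markers of maturing myeloid cells differed between the groups in part. Of 10 tested late granulocyte markers 4 were called higher, and of 7 tested monocyte and macrophage markers 4, with none lower in either list. Beside each count of calls in this paragraph stands the share over all tested genes, 12.9% called higher and 6.11% lower. Ly6g, Ngp, Mmp9 and Itgam were highest in WT replicate 1 and were not called. Of the 13 progenitor genes, 3 were called higher, the granule protein genes Mpo (4.84, 0.015) and Elane (1.22, 0.013) and the myeloid factor Cebpa (0.31, 0.042), and 2 lower, Hoxa9 (-0.29, 0.029) and Hoxa10 (-0.22, 0.039). Summed over 12 monocyte and macrophage markers, TPM was 1329.5 to 1649.7 in KO and 1095.4 to 1214.6 in WT; 83.3% to 90.9% of this sum was Ly6c2, and the other markers together came to 171.1 to 265.1 TPM in KO and 101.0 to 185.1 TPM in WT, with KO replicate 1 below WT replicate 1. Among them, Ccr2 (-0.36, 0.43) and Adgre1 (0.06, 0.84) were not called, and 4 of the 12 were under 1 TPM in every library. The late granulocyte sums, given above, did not overlap, with KO replicate 1 (580.5 TPM) near WT replicate 1 (531.7 TPM). Different genes made up these sums. S100a8 was at 240.9 TPM in KO replicate 1 and 50.0 TPM in WT replicate 1. Itgam was at 157.9 and 231.7 TPM in these libraries, and Ngp at 31.5 and 109.5 TPM. In these bulk samples more cells of a type and more RNA per cell cannot be told apart, and the part of these markers in the values of Nfkbia, Nfkbie and Rel was not tested. Sums over markers of other lineages were 26.5 to 32.0 TPM in KO and 17.0 to 20.7 TPM in WT for B cells (Ms4a1 and Ebf1 listed at 0 throughout; Cd79a and Cd79b, the 2 tested, called higher) and 0.6 to 1.4 against at most 0.2 TPM for T and NK cells. They were 14.3 to 22.7 against 7.3 to 12.8 TPM for erythroid cells (Klf1 and Gata1 called higher, of 3 tested), and 103.8 to 167.8 against 75.9 to 100.9 TPM for stromal and endothelial cells (Kdr listed at 0 throughout; Acta2 and Col1a1 called higher, of 4 tested). Cd79a and Col1a1 passed the filter through the KO libraries alone and so had to differ, and their calls are no support for these counts. The oestrogen receptor gene Esr1 was at 24.8, 27.0 and 27.3 TPM in KO and at 19.5, 19.4 and 20.2 TPM in WT (log2 fold change 0.40, limma adjusted p = 0.015).

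**Figure D5:**
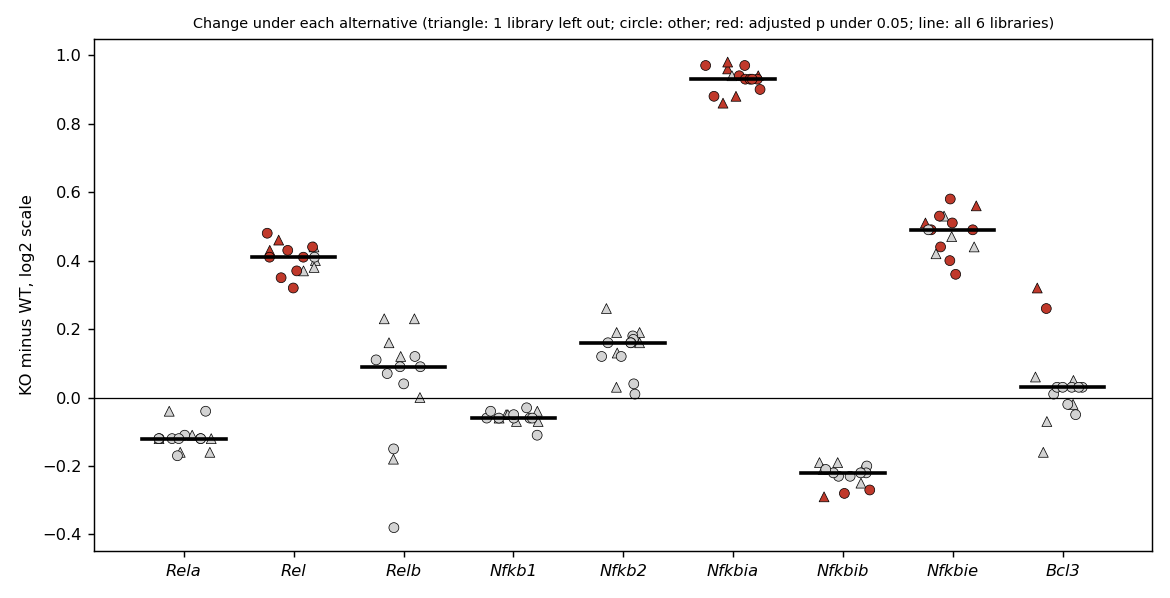
Log2 fold change of each tested member in all 6 libraries (black line) and under each alternative setting, with triangles for fits that leave out 1 library, circles for the other settings, and red for an adjusted p under 0.05. Nfkbia stays between 0.86 and 0.98, Rel between 0.32 and 0.48 and Nfkbie between 0.36 and 0.58, while Relb and Bcl3 fall on both sides of 0.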

How the data were processed

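RNA was measured in 3 KO and 3 WT libraries, grouped by the titles in the labels. Libraries kept strand and were selected for poly(A), with 100 bp paired-end reads, per the labels' protocols. Trim Galore 0.4.2, cutadapt 1.9.1, STAR 2.6.1e, featureCounts 1.6.2 and the mm10 build are named in the submitters' processing notes; no source used here gives the annotation, the strand setting or the step to TPM. The authors deposited TPM per gene symbol with 1 decimal; the libraries sum to 999924 to 999935, and no counts or depths are given. Genes that reached 1 TPM in 3 or more libraries were tested (13575; 22294 were left out) with limma 3.58.1 (R 4.3.3) on log2(TPM + 1), with genotype as the only term and a trend in the prior variance; p-values are two-sided and were adjusted by Benjamini-Hochberg over all tested genes. Fold changes on this scale understate changes of weakly expressed genes. The code was tested on simulated data. The members, the 8 pathway lists, the marker lists and the alternatives were chosen with earlier results of these data known. Named genes were all members, up to 4 called genes per pathway list in the main direction and 2 in the other, and the 3 genes nearest to each called member, predicted or clone-derived models excepted; others are marked as chosen after their values were seen, and some genes of these lists are not reported here. Gene positions and promoter windows came from RefSeq on GRCm38.p6 (mm10 is the browser name of GRCm38), and exons, strands and overlaps from GENCODE M21. The 15 alternatives were pseudocounts of 0.1, 0.5 and 5, quantile normalization, scaling by the median, no filter on low values, a filter on means under 5 TPM, the replicate number as a block, each library left out, and both replicates numbered 1 left out. Tested genes were kept the same where libraries were left out.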

Additional observations from a re-analysis of the deposited data

How the results depend on the processing

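With all 6 libraries 1745 genes were called higher and 830 lower, 3 members higher and 0 lower, and 15 pathway genes higher and 5 lower. Without the filter 2730 genes were higher. With a mean of at least 5 TPM, 883 genes and 9 pathway genes were higher and 2 pathway genes lower; fewer genes were tested. Median scaling gave 1741 genes, 1 member (Nfkbib) and 11 pathway genes lower, and a log2 fold change of -0.02 for Bcl3. Quantile normalization gave 1722 genes and 10 pathway genes lower, -0.38 for Relb and -0.05 for Bcl3. With both replicates numbered 1 left out, 3859 genes were higher and 3710 lower, 1 member was lower (Nfkbib), 42 pathway genes were higher and 25 lower, and Relb was at -0.15. With 1 library left out at a time, calls ranged from 0 to 2927 genes higher and from 0 to 1923 lower, from 0 to 4 members higher and 0 to 1 lower, and from 0 to 36 pathway genes higher and 0 to 8 lower; no gene was called without KO replicate 3, where limma found 3381 genes and 3 of 9 members at an unadjusted p under 0.05. Relb ranged from -0.18 to 0.23 and Bcl3 from -0.16 to 0.32. The cause of these shifts was not tested.

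With the replicate block, 300 genes were higher and 33 lower, 1 member (Nfkbia, limma adjusted p = 0.048) was higher, and 3 pathway genes were higher and 0 lower; 4 members and 4223 genes had an unadjusted p under 0.05. Rel (0.069) and Nfkbie (0.081) lost their calls. The values gave no sign of a pairing by number: deviations from the group means correlated at -0.199, -0.145 and -0.164 between KO and WT libraries of the same number, and no library correlated best with its own number. Within each group the deviations cancel out, so these correlations depend on each other and cannot exclude a pairing. The untested difference of Nfkbiz (0.02) ranged from -0.15 to 0.13 with 1 library left out. Rela, Nfkb1 and Nfkb2 kept their sign and were not called in any of the 15 alternatives. Depth is unknown, so the precision of low values such as Relb and Nfkbiz cannot be stated.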
